A study of Homo sapiens with 8 samples.

Results

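The progesterone receptor (PR) binding sites of T47D MTVL cells were compared between untreated cells and cells exposed for 60 min to 10 nM R5020, a synthetic progestin. The sites were chosen as all peaks of these 2 libraries on chromosomes 1 to 22 and X, outside peaks of the input list. They made 43289 peaks, 219 from untreated cells and 43070 after R5020, of 93493 in the 8 libraries of the series. T47D cells are a human breast cancer line, long established and of mammary epithelial origin, that makes PR. Its MTVL derivative, labelled WT, is known to carry an integrated reporter driven by the hormone-responsive promoter of mouse mammary tumour virus. Both groups shared hormone-stripped serum and a serum starvation that arrests the cells, as the growth label describes for T47D-WT cells, and both were precipitated with the H-190 antibody against PR. The other libraries came from T47D A1-2 cells, which the series describes as having PR and the glucocorticoid receptor (GR). They were GR and PR precipitates without hormone, GR after dexamethasone (Dex, a synthetic glucocorticoid), GR and PR after R5020, all at the same dose and time, and input DNA.

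PR is a transcription factor of the nuclear receptor family. Without hormone it is held largely inactive by chaperone proteins. Progestin binding releases it to form dimers on hormone response elements, many of them in enhancers far from genes, and GR recognises nearly the same elements.

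Each condition had 1 library, so differences below are descriptions of these libraries without a test. Intervals are exact (Clopper-Pearson) 95% intervals for shares, cover counting error over peaks only, and do not measure the spread between cultures. Read depth was unknown, and the number of called peaks moves with it. The score is the authors' own value for each peak, read as -10 multiplied by log10 of its p-value, and only peaks of at least 100 were listed. Positions are in hg19, counted from 1, and peaks are named by position because no genes were placed on them.

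The PR list of MTVL cells held 219 peaks without hormone and 43070 after R5020. The R5020 list was 197 times as long as that of untreated cells, and covered 32.1 Mb of the genome against 0.343 Mb. Of the R5020 peaks, 42829 overlapped no peak of untreated cells, which is 99.4% of them, and are called hormone-gained here. The other 241 lay at an untreated peak. In the opposite direction, 218 of 219 untreated peaks (99.5%) overlapped at least 1 R5020 peak. With so long a list after R5020, these peaks are hormone-independent only in the sense that they were called in both states.

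Hormone-gained sites were for the most part of moderate score, with a long tail upward. Their median score was 310 (quartiles 164 and 783), and 14453 of them (33.7%) scored below 200. At the upper end 8666 (20.2%) scored at least 1000 and 1905 (4.45%) at least 3100. From 3100 up the score is crowded at a ceiling and no longer ranks sites. The untreated list had no such tail: its median was 143 (quartiles 119 and 206), its highest value 511, and 161 of its 219 peaks (73.5%) scored below 200. Scores of different libraries are not levels on a common scale, so these medians describe each list and are not a change in binding.

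The 5 hormone-gained sites with the highest listed score shared a value of 3233. They stand as examples of the sites at the ceiling and are not shown to be stronger than the others there. Chromosome 1 had a pair of them, from 219605899 to 219607223 and from 244825770 to 244826603. The site of chromosome 6 spanned 17388266 to 17389137, that of chromosome 7 spanned 123771209 to 123771981, and that of chromosome 10 spanned 115681459 to 115682355. None of the 5 had a called peak without hormone. All 5 were PR sites in A1-2 cells after R5020, and 4 of them, all but that on chromosome 7, lay at a GR peak after Dex. The site on chromosome 6 stood just before an untreated peak (17389279 to 17390774, score 231), so a strong gained site and a site already called without hormone were direct neighbours there.

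Most of the sites called without hormone, though not all, fell on the strongest sites of the R5020 list. R5020 peaks at an untreated peak had a median score of 2964, which put them at the 94.9th percentile of the R5020 list, against 310 for the gained ones. The R5020 list was divided by score into 10 classes of 4307 peaks, class 1 the lowest and class 10, from a score of 1926 up, the highest. In class 1, 5 peaks (0.116%, 0.0377 to 0.271) lay at an untreated peak, in class 9, 26 (0.604%, 0.395 to 0.883), and in class 10, 152 (3.53%, 3.0 to 4.12). Among the 2021 peaks at the ceiling the share was 5.74% (4.77 to 6.84). Even there, 1905 peaks had no counterpart without hormone.

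**Figure D1:**
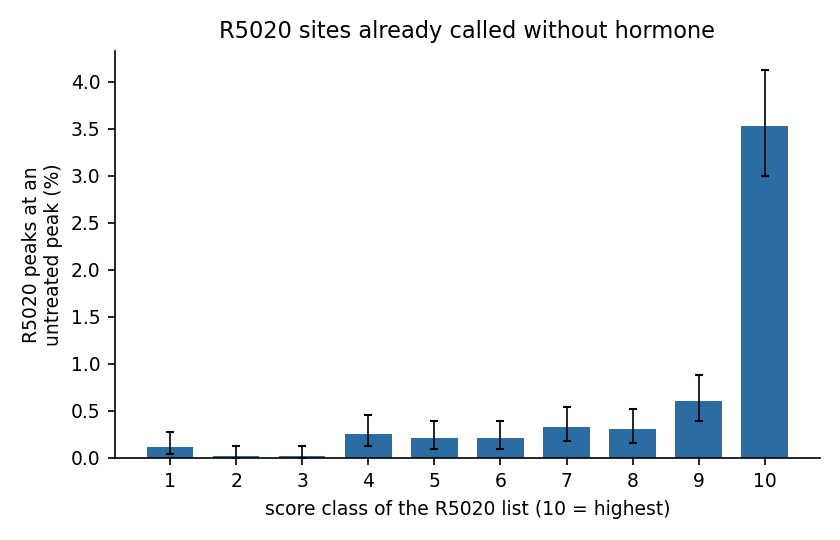
Share of R5020 peaks that overlapped a PR peak of untreated MTVL cells (vertical axis, %) in each of 10 score classes of the R5020 list (horizontal axis), with exact 95% intervals over peaks. The share was at most 0.604% in classes 1 to 9 and 3.53% in class 10.

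Because scores are tied at the ceiling, the peaks there were also ordered by width. They were divided into 4 groups of nearly equal size. Among the narrowest, from 464 to 920 bp, 16 of 505 lay at an untreated peak (3.17%, 1.82 to 5.09). Among the widest, from 1426 to 7776 bp, 47 of 506 did (9.29%, 6.90 to 12.2). The shares in between were 4.55% and 5.94%. Wider R5020 peaks were thus called more often without hormone also within the group that the score does not rank, although a wide peak also offers more bases for an overlap.

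Of the 218 untreated peaks with an R5020 peak, 115 (52.8%) had a counterpart at the ceiling, where the R5020 score cannot order them. Over the 103 with a counterpart below 3100 the rank correlation of the scores was -0.01 (Spearman's rho, across sites of 2 libraries, as a description), and over all 218 it was 0.10. The strongest untreated peak, on chromosome 11 from 1817270 to 1818537, scored 511. On chromosome 8 from 69764364 to 69767383 the score was 480, and on chromosome 22 it was 422 from 29214091 to 29216322 and 396 from 41128317 to 41129445. The R5020 peaks of these 4 sites were all at the ceiling, and the 4 sites lay at GR Dex peaks in A1-2 cells. The remaining one of the 5 strongest differed. It lay on chromosome 1 from 145395026 to 145399905 (score 477), its R5020 peak scored 1446, it lay at no GR Dex peak, and untreated A1-2 cells had a PR peak there too.

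That contrast ran through the list. Of the 219 untreated peaks, A1-2 cells had a GR Dex peak at 144 (65.8%, 59.1 to 72.0) and, without hormone, a PR peak at 39 (17.8%, 13.0 to 23.5). Only 8 lay at both. GR Dex alone held 136, the untreated A1-2 PR list alone 31, and 44 lay at neither. No untreated MTVL peak lay at a GR peak of untreated A1-2 cells (0 of 219, with an upper bound of 1.67%). Of all 43070 R5020 peaks only 48 (0.111%) did, so this absence does not set the untreated peaks apart. These A1-2 lists were of unequal length, with 18415 GR Dex, 630 untreated PR and 394 untreated GR peaks. Their median peak widths also differed, at 659, 247.5 and 226.5 bp in the same order. A longer list or wider peaks offer more overlaps, so shares at different lists are not directly comparable. Of the 180 untreated peaks that untreated A1-2 cells did not have, 75.6% (68.6 to 81.6) lay at GR Dex peaks, against 20.5% (9.30 to 36.5) of the 39 that they had, and these intervals do not overlap. The difference rests on 1 library of each kind.

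Untreated peaks of the 2 kinds had R5020 counterparts of different strength. For the 144 at GR Dex peaks the median R5020 score was 3100, with 103 at the ceiling and none in classes 1 to 5. For the 31 found in untreated A1-2 cells and not at GR Dex peaks it was 354 (quartiles 268 and 533), with none at the ceiling and 11 in classes 1 to 5. Their scores without hormone were much alike, with medians of 145 and 151. The 8 at both lists were counted in the 144, and had a median R5020 score of 3100, with 5 at the ceiling. With them, the 39 found in untreated A1-2 cells had a median of 435 (quartiles 292 and 970). Among gained peaks GR Dex overlap itself rose with R5020 score. Groups formed by that overlap thus have part of the score contrast built in, and how large a part was not tested. Within the 31, sites with a higher untreated score also had a higher R5020 score (Spearman's rho 0.68, n = 31 sites, a group formed after the values were seen). The 44 sites at neither list had a mixed R5020 score, with a median of 1815 and quartiles of 663 and 3100, and 12 of them were at the ceiling.

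**Figure D2:**
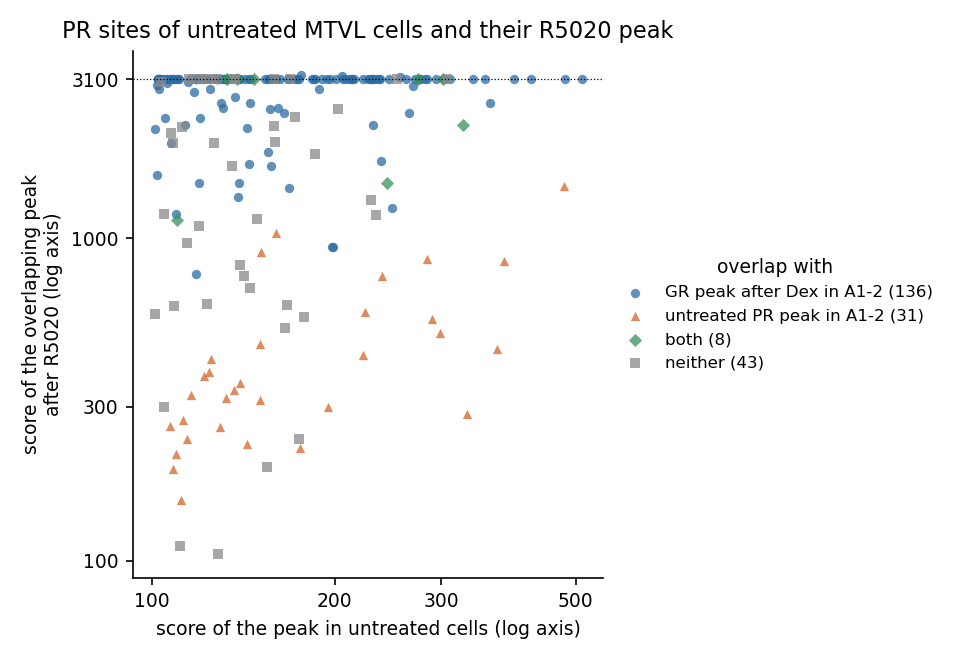
Each point is 1 of the 218 PR peaks of untreated MTVL cells that overlapped an R5020 peak, with its untreated score (horizontal, log axis) and the highest score among its R5020 peaks (vertical, log axis), coloured by the A1-2 lists it overlapped. The dotted line marks 3100; blue points crowd at it, and the 31 orange points all lie below it, with a median of 354.

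Counted from the R5020 list, the same sites showed the same division, which is not independent of the counts above. Of the 50 R5020 peaks at an untreated peak in classes 1 to 7, 0 lay at a GR Dex peak (upper bound 7.11%), whereas 18.9% (18.4 to 19.3) of the 30099 gained peaks in those classes did. Of the 50, 30 (60.0%) lay at a PR peak of untreated A1-2 cells, compared with 113 of the 30099 (0.375%). In class 8, 3 of 13 peaks called without hormone lay at GR Dex peaks, beside 37.3% of the gained ones, and in class 9, 15 of 26, beside 50.5%. In class 10 it was 132 of 152 (86.8%, 80.4 to 91.8), above the 75% (73.7 to 76.3) of the gained ones. Scores differed within that class, with 76.3% of the 152 and 45.8% of the gained ones at the ceiling. Among ceiling peaks the shares were 90.5% (83.7 to 95.2) of 116 and 84.8% (83.1 to 86.4) of 1905 gained ones, with overlapping intervals. Class 7 was taken as the boundary after the counts had been seen.

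Several of the sites that both lines had without hormone, and that lay at no GR peak, stood together on the short arm of chromosome 6. Between 26 and 29 Mb, a stretch known for dense clusters of histone and tRNA genes, lay 8 untreated MTVL peaks. All 8 overlapped an untreated PR peak of A1-2 cells and 0 overlapped a GR Dex peak. Their scores without hormone ran from 107 to 370 and those of their R5020 peaks from 192 to 590. The highest untreated score of the 8 lay from 27869861 to 27871175, and its R5020 peak scored 453. The same 3 Mb held 52 hormone-gained peaks with a median score of 188, of which 9 lay at GR Dex peaks. The A1-2 lists had 37 untreated PR peaks there, 0 untreated GR peaks and 1 input peak. These bounds were chosen after the values were seen.

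A similar group lay on chromosome 17 between 8022112 and 8126723. Its 3 untreated peaks scored 240, 151 and 176, and their R5020 peaks scored 760, 907 and 224 in the same order. All 3 were also called in untreated A1-2 cells, and none was at a GR Dex peak. Near the end of chromosome 5 lay 3 more of the same kind, from 180614315 to 180616407 (score 114), from 180644332 to 180645739 (129) and from 180648282 to 180649944 (125). Their R5020 scores were 238, 259 and 421. Both groups were singled out after their values were seen.

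Untreated peaks were in most cases also PR sites of the other line once hormone was added. After R5020, A1-2 cells had a PR peak at 204 of the 219 (93.2%, 89.0 to 96.1), against 53.6% (53.1 to 54.1) of the gained peaks. Most of that gap went with strength. Of gained peaks, 18.8% in class 1 and 97.5% in class 10 were also called in A1-2 cells, and when each class was given the weight it has among the R5020 peaks at untreated peaks, 85.1% of the gained peaks were found, against 90.5% (86 to 93.9) of the 241. For GR Dex peaks the share of gained sites went from 12% in class 1 to 75% in class 10. Over all scores it was 29.3%, and 59.3% with the same weights, against 62.2% (55.8 to 68.4) of the 241. The weighting was added after the values were seen. The A1-2 GR list after R5020 had a peak at 6.22% (3.53 to 10.1) of the 241 and at 0.558% (0.490 to 0.633) of all gained peaks. In class 10 the shares were 9.21% (5.13 to 15.0) and 3.71% (3.15 to 4.33), again with intervals apart. At the ceiling they were 11.2% (6.10 to 18.4) of the 116 peaks called without hormone and 7.19% (6.07 to 8.45) of the 1905 gained ones, with overlapping intervals.

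Sites held before hormone in A1-2 cells could be hormone-gained in MTVL cells. Of the gained peaks 134 (0.313%) lay at an untreated A1-2 PR peak and 48 (0.112%) at an untreated A1-2 GR peak, with 28 at both. The 134 were weaker than the gained list as a whole, with a median score of 195, and 68 of them scored below 200. GR Dex peaks lay at 37.3% (29.1 to 46.1) of the 134, against 29.3% (28.9 to 29.8) of all gained peaks. In classes 1 to 5, which include that median score, they lay at 15.6% (15.1 to 16.1) of gained peaks. Over the 134 together, GR Dex peaks were thus not fewer, but the 28 at both untreated A1-2 lists held 24 of the 50 overlaps. No untreated MTVL peak was of that kind, so the 134 are not directly comparable with the untreated peaks above.

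Only 1 untreated peak had no R5020 peak. It lay on chromosome 3 from 169809923 to 169817889, was the widest of the untreated list at 7967 bp, scored 129 and overlapped no peak of any A1-2 list used here. The nearest R5020 peak was 20.8 kb away, from 169787561 to 169789147 (score 1204), and the nearest input peak 121 kb away. The unmatched peak lay beyond 150 Mb of chromosome 3, a stretch with 43 of the 150 input peaks of at least 3 kb. The part of input signal in this peak was not tested.

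Where the 218 overlapped, the peaks were nearly concentric. The median distance between midpoints was 63.5 bp, and its upper quartile 196 bp. The untreated peak was the wider of the pair at 162 of 218 sites and enclosed the R5020 peak at 131, with a median ratio of widths of 1.17. At the 16 sites whose R5020 peak was in classes 1 to 5 the ratio was 1.81, and at the 115 with a ceiling peak 1.05. The widths of both lists went together across the 218 sites (Spearman's rho 0.57, as a description). An untreated peak overlapped a single R5020 peak in 197 cases, 2 in 19 and 3 in 2.

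In MTVL cells, untreated peaks were wide and R5020 peaks narrow as lists. The median width was 1242 bp (quartiles 1036 and 1736) without hormone and 671 bp (576 and 817) after R5020. The narrowest untreated peak measured 848 bp, above the upper quartile of the R5020 list, whose narrowest peak measured 193 bp. The PR lists of A1-2 cells went the other way, with median widths of 247.5 bp without hormone and 645 bp after R5020. Width in such lists depends on how the caller was set for each library, whose part here was not tested, so the comparison within the R5020 list is the more direct one. There, peaks at an untreated peak had a median width of 1090 bp (interval 1001 to 1200) and gained peaks one of 670 bp (668 to 672), a ratio of 1.63.

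Width rose with score among gained peaks, from a median of 537 bp in class 1 to 983 bp in class 10, with a rank correlation of 0.65 over the R5020 list. Within class 10, peaks at an untreated peak had a median width of 1290.5 bp (quartiles 983 and 1578.5), against 983 bp (839 and 1248.5) for the gained ones. Averaged over classes, weighted by their number of peaks at an untreated peak, the ratio of medians was 1.26. It was 0.850 in class 3, where 1 peak stood for the group, and above 1 in the other 9 classes.

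**Figure D3:**
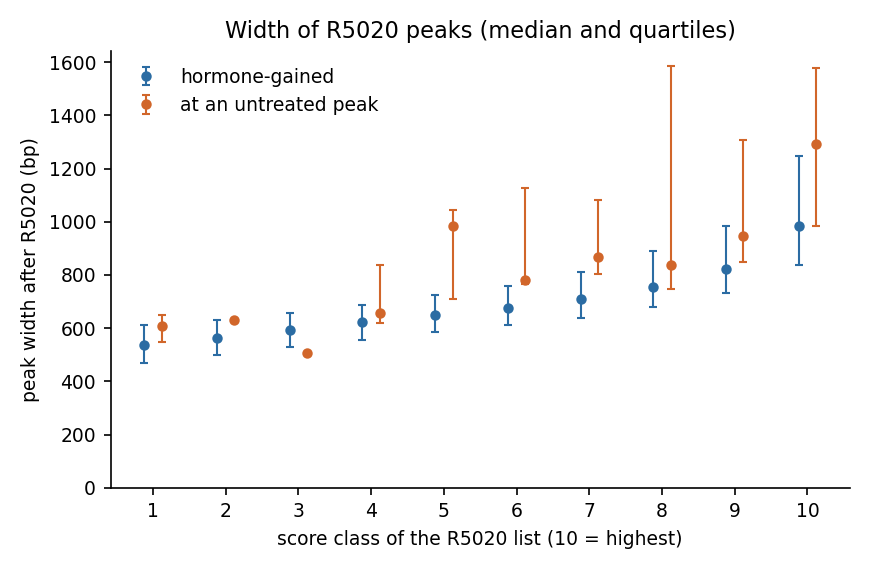
Width of R5020 peaks (vertical axis, bp) by score class of the R5020 list (horizontal axis), as medians with quartiles, for hormone-gained peaks and for those at an untreated peak. Gained peaks go from 537 to 983 bp, and the peaks at an untreated peak lie above them in each class but class 3; classes 2 and 3 hold 1 such peak each.

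Of 56 R5020 peaks of at least 3 kb, 13 lay on chromosome 16 between 85 and 86 Mb, 17 on chromosome 3 beyond 150 Mb and 26 elsewhere. The 5 widest gained peaks were all in the first of these, led by a peak of 11365 bp from 85601512 to 85612876 (score 2537). That stretch held 62 R5020 peaks with a median width of 1321 bp, of which 53 were PR sites and 41 GR Dex sites in A1-2 cells, and 0 untreated peaks. The A1-2 lists had wide peaks in the same stretch, with medians of 2156 bp for PR after R5020 and 1332.5 bp for GR after Dex, and the A1-2 input list had 0 peaks there. Chromosome 3 beyond 150 Mb held 992 R5020 peaks with a median width of 869.5 bp. Of the 13 untreated peaks of at least 3 kb, 3 lay there and 10 in neither stretch. The 3 included the unmatched peak described above and that from 187524098 to 187530267 (6170 bp, score 132, at a GR Dex peak). Input DNA of A1-2 cells had 43 of its 150 peaks of at least 3 kb beyond 150 Mb of chromosome 3 as well. Of peaks of any width, that stretch held 2.28% of the untreated, 2.30% of the R5020 and 7.28% of the input list, and the part of the input signal in these widths was not tested. The other wide untreated peaks included those on chromosome 10 from 95194372 to 95199706 (5335 bp, score 276) and on chromosome 12 from 116825936 to 116830623 (4688 bp, score 230), both at GR Dex peaks, and that of 4880 bp on chromosome 1 described above. The length limit and both stretches were chosen after the widths were seen.

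R5020 sites stood close to each other. For a gained peak the median gap to the nearest other R5020 peak was 9252 bp (quartiles 2333 and 29231), and 66.9% (66.5 to 67.4) had another within 20 kb. Only 5.41% had none within 100 kb. PR peaks of A1-2 cells after R5020, in a shorter list, had a median gap of 11409 bp, and 61.2% had another within 20 kb. Untreated peaks were far apart, with a median gap of 2.55 Mb, recorded as 2553960 bp, and 20 of 219 (9.13%, 5.67 to 13.8) within 20 kb of another. A list of so few peaks is spread more thinly, and the spacing of lists of unequal length was not tested.

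**Figure D4:**
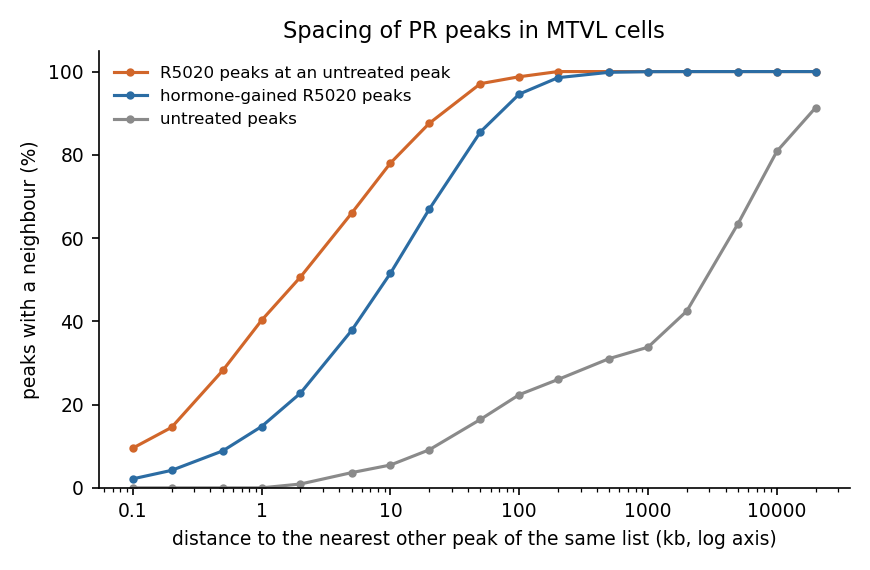
Cumulative share of peaks (vertical axis, %) whose nearest other peak of the same list lies within a given distance (horizontal, kb, log axis). At 20 kb the curves stand at 87.6% for R5020 peaks at an untreated peak, 66.9% for gained peaks and 9.13% for the untreated list.

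Sites called without hormone lay where R5020 peaks were dense. R5020 peaks at an untreated peak had a mean of 2.99 other R5020 peaks within 20 kb, against 1.59 for gained peaks, and 12.4% against 33.1% had none. Part of this went with score, since gained peaks of class 10 had a mean of 2.38, compared with 3.30 for the peaks at an untreated peak in that class. In classes 1 to 5 the means were 2.19 for 27 peaks and 1.37 for the gained ones. Of the 241, 40.2% had a neighbour within 1 kb, against 14.7% of gained peaks. This counts the 21 untreated peaks that covered several R5020 peaks.

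Many gained sites formed runs, taken as stretches with gaps of at most 20 kb. Of the 42829 gained peaks 14212 (33.2%) stood alone, 18781 were in runs of 2 to 4, 7139 in 1178 runs of 5 to 9, and 2697 in 208 runs of 10 or more. Peaks in longer runs were stronger and wider. The median score was 255 for peaks that stood alone, 319 in runs of 2 to 4, 404 in runs of 5 to 9 and 480 in runs of 10 or more, and the median width went from 633.5 to 753 bp. The share also found in A1-2 cells after R5020 went from 47.7% to 64.8%, and the share at GR Dex peaks from 24.6% to 36.5%. Of the 208 longest runs 22 spanned an untreated peak, compared with 23 of the 7478 runs of 2 to 4, although a longer run covers more of the genome.

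The run with most gained peaks lay on chromosome 14 from 95585534 to 95808148. It held 31 gained peaks in 223 kb, with scores from 101 to 3100, of which 28 were PR sites and 24 GR Dex sites in A1-2 cells, and no untreated peak. On chromosome 2 from 11619109 to 11767495 lay 26 gained peaks and 2 untreated ones. Chromosome 16 had a run of 25 from 89409797 to 89556130, and chromosome 8 another of 25 from 124540262 to 124703113. A second run on chromosome 14, of 24 peaks, spanned 50364722 to 50511462. Peaks in the run on chromosome 8 had the highest median score of these 5, at 1098, while the run on chromosome 16 had the lowest, at 379. Peaks covered between 12.2% and 15.8% of these stretches.

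Untreated peaks seldom stood together. They formed 7 pairs and 2 groups of 3, the latter on chromosome 21 (36100453 to 36110173) and chromosome 22 (29209422 to 29219799). The scores of the 3 peaks on chromosome 21 ranged from 194 to 353 and those on chromosome 22 from 102 to 422. All 6 peaks lay at GR Dex peaks and none at an untreated A1-2 peak. Each of these stretches held 4 R5020 peaks.

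Gained sites were found on every chromosome analysed. Over the span from the first to the last R5020 peak, density ranged from 6.83 peaks per Mb on chromosome X to 19.1 on chromosome 22, with a median of 15.8. The strength of gained peaks was similar from chromosome to chromosome, with median scores from 280 on chromosome 4 to 352 on chromosome 16, and median widths from 591 bp on chromosome X to 743.5 bp on chromosome 17. The share with another R5020 peak within 20 kb was lowest on chromosome X, at 56.5%, and highest on chromosome 17, at 72.9%.

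Untreated sites were spread over the chromosomes much as R5020 sites were, with 3 departures. Chromosome 19 held 14 of 219 untreated peaks (6.39%, 3.54 to 10.5), against 1.86% of R5020 peaks, a ratio of 3.44. Of these 14, 11 lay at GR Dex peaks and 3 at untreated A1-2 peaks. Chromosome 22 held 8 (3.65%, 1.59 to 7.07), against 1.5%, and all 8 lay at GR Dex peaks. Chromosome 18 held 0 of 219 (upper bound 1.67%), against 2.04% of R5020 peaks, 880 in number. The next highest ratio was 1.67 on chromosome 21, and the next lowest were 0.381 on chromosome 20 and 0.569 on chromosome X, with intervals that included the R5020 share. The intervals were not adjusted for the 23 chromosomes.

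**Figure D5:**
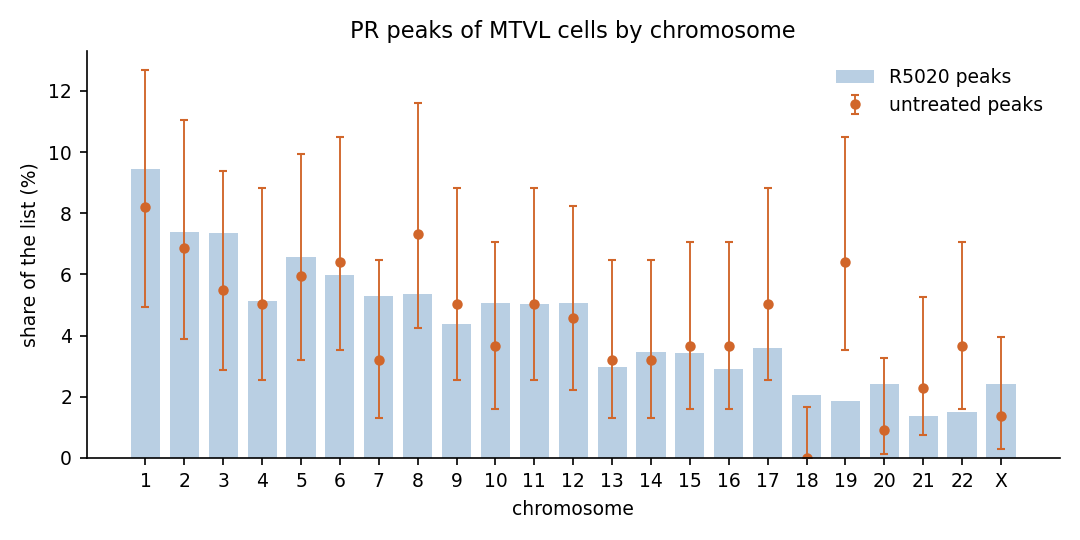
Share of each list (vertical axis, %) on each chromosome: bars for the 43070 R5020 peaks, points with exact 95% intervals for the 219 untreated peaks. The points stand above the bars beyond their interval on chromosomes 19 and 22 and below on chromosome 18.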

How the data were processed

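PR ChIP-seq peaks of untreated and R5020-treated MTVL cells were analysed, with the A1-2 lists for comparison. The authors aligned and called peaks with tools that the submitters' processing notes name as Bowtie 1.1.1, MACS 1.4.2 and bedtools, on hg19. The sources used here state neither their settings nor the control library or read depth. Each deposited file lists the peaks of 1 library with a score, taken as MACS's -10 times the log10 of p, since no value is below 100 and 1e-10 stands as the threshold in the names of the deposited files.

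Peaks off chromosomes 1 to 22 and X, or overlapping an A1-2 input peak (2 of 221 untreated and 328 of 43398 R5020 peaks), were left out. An input list from MTVL cells itself was not used. Peaks overlapping by 1 bp or more counted as shared, and an untreated peak's counterpart was its R5020 peak of highest score. Gaps are edge to edge. Medians have intervals from order statistics. Overlap, gap and run steps were tested on simulated data. Python 3.11.15, numpy 2.4.6, pandas 2.3.3, scipy 1.17.1 and matplotlib 3.10.9 were used.

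By rule, the 5 sites of highest score in each class, the 5 widest untreated peaks, the 5 longest runs, the unmatched peak, groups of at least 3 untreated peaks, and chromosomes at the ends of the range of ratios were named. Sites, lists and rules were chosen with earlier results of these data known. Because the available gene annotation was of GRCh38 and not hg19, peaks were not assigned to genes and no sequence was read by position.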

Additional observations from a re-analysis of the deposited data

How the results depend on the processing

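For 21 results 74 alternatives were run. In 46 the value was inside the 95% interval of the reported one, or for counts and ratios less than 1.5 times away. In 28 it moved further. A reversal was defined only for ratios, as a crossing of 1, and 0 of them crossed it. Counts, medians and shares could not be labelled reversed. Raising the smallest score to 200 left 58 untreated peaks and a ratio of peak numbers of 497, with 66 R5020 peaks at an untreated peak. It gave 100% of untreated peaks with an R5020 peak, median widths of 1398 bp for untreated, 733 bp for gained and 1309 bp for R5020 peaks at an untreated peak, 59.2% of gained and 3.45% of untreated peaks within 20 kb of another, and 681 runs of at least 5. It put 49.3% of gained and 96.6% of untreated peaks at A1-2 PR peaks after R5020, and 22.4% of gained peaks at GR Dex peaks. Midpoints within 200 bp matched 74.9% of untreated peaks to an R5020 peak, 71.7% to an A1-2 PR peak after R5020 and 51.6% to a GR Dex peak, and 50.1% and 26.7% of gained peaks to the latter lists. With the R5020 list shortened by score, 68.0% of untreated peaks had a counterpart in class 10 and 3.65% in a list as long as the untreated one, where ties at the ceiling limit the ranking. A distance of 10 kb gave 51.5% of gained and 5.48% of untreated peaks a neighbour and 648 runs, and 50 kb gave 85.5%, 16.4% and 2516. Weighted by score class, a rule added after seeing the data, 85.1% and 59.3% of gained peaks lay at A1-2 PR and GR Dex peaks. Shares near a transcription start were not run for want of an annotation of this build. No paired analysis was possible because each condition had 1 library. With unknown depth, a site with no untreated peak is one not called, which does not show that PR was absent.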
